A study of Mus musculus with 20 samples.

Results

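The insulin-like growth factor (IGF) system was followed through 10 genes, picked by gene symbol from the deposited table of 27179 genes. They are the ligands Igf1 and Igf2, the receptors Igf1r and Igf2r, and the binding proteins Igfbp2, Igfbp3, Igfbp4, Igfbp5, Igfbp6 and Igfbp7. All 10 were among the 13057 genes that were tested, those averaging 10 or more normalized reads (read counts that the authors scaled between libraries). Igfbp2 passed that filter only through DPP4+ cells.

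The RNA came from PDGFRb+ adipocyte progenitor cells (APCs) of the inguinal fat pad, a subcutaneous white depot, of male C57BL/6 mice. DPP4, a peptidase on the cell surface, was used to separate them into a positive and a negative fraction by flow cytometry. The groups were DPP4+ cells from mice kept at 6 °C for 24 h, DPP4+ cells from mice kept at 22 °C, DPP4- cells from mice kept at 6 °C for 24 h and DPP4- cells from mice kept at 22 °C, with 5 libraries each and 20 in all. The labels name no allele, transgene or drug for any group, and the age of the mice and the number of mice behind a library are not given in the sources used here, so the p-values measure the spread between these libraries, which may be technical in part.

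IGF1 and IGF2 are secreted hormones that act through IGF1R, a receptor tyrosine kinase, while IGF2R carries IGF2 to lysosomes for breakdown. Most IGF in tissue is held by binding proteins, which lengthen its life and limit its access to the receptor until proteases such as PAPP-A cut them. IGF1 supports proliferation and adipogenic differentiation of fat cell precursors, and growth hormone is the best known inducer of Igf1.

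In the mouse genome (RefSeq, GRCm38; strand in parentheses), the ligand genes lie at chr10:87858265-87937047 (+) for Igf1 and chr7:142650768-142666816 (-) for Igf2, and the receptor genes at chr7:67952257-68233668 (+) for Igf1r and chr17:12682406-12769706 (-) for Igf2r. The binding protein genes Igfbp2 (chr1:72824480-72852474 (+)) and Igfbp5 (chr1:72858065-72874865 (-)) are neighbours on opposite strands of chromosome 1. Igfbp3 (chr11:7206086-7215498 (-)) and Igfbp4 (chr11:99040005-99052655 (+)) lie on chromosome 11, Igfbp6 at chr15:102144186-102149512 (+) and Igfbp7 at chr5:77349240-77408045 (-). Antisense or nested genes overlap Igf1, Igf2, Igf1r, Igf2r and Igfbp7 in the annotation.

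Between 11.8 and 17.5 M reads (M, mega) per DPP4+ library at 6 °C were assigned to genes, with 15.8 to 17.6 M per DPP4+ library at 22 °C. DPP4- libraries from mice kept at 6 °C varied most in depth, between 8.49 and 18.8 M, and those from 22 °C lay between 11.0 and 13.4 M. The sort marker Dpp4 averaged 10035 and 8546 normalized reads in DPP4+ cells at 6 and 22 °C, against 61.3 and 67.9 in DPP4- cells at the same temperatures, and the progenitor genes Pdgfra and Pdgfrb were present in every group. Lymphocyte markers were at or near 0, with a summed level of 2.24 to 11.2 normalized reads in DPP4+ cells at 6 °C, and Cd3e, Cd3g and Nkg7 at 0 there. Among DPP4- libraries at 6 °C, replicate 2 had the highest macrophage and lymphocyte sums (525 and 119), and among DPP4+ libraries at 6 °C, replicate 5 lay apart on the principal components. Results at 6 °C were also computed without these 2 libraries.

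Read per exon length, Igfbp4, Igfbp5, Igfbp6 and Igfbp7 had higher mean levels than every ligand and receptor in all 4 groups, and the leading binding protein differed between the populations. Igfbp3 also averaged above the ligands and receptors, with overlap with Igf1 in DPP4- cells at 22 °C. Igfbp2 ranked below both receptors in DPP4+ cells and lowest of the 10 in DPP4- cells. Levels here are normalized reads per kb of union exon (GENCODE vM21). Igfbp6, which has a strong preference for IGF2, led in DPP4+ cells at 11079 ± 2379 per kb at 6 °C and 10293 ± 1046 per kb at 22 °C (SD, n = 5 each). Igfbp7, a low-affinity IGF binder also known as angiomodulin, led in DPP4- cells at 13126 ± 1475 per kb at 6 °C and 13962 ± 959 per kb at 22 °C (SD, n = 5 each).

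In DPP4+ cells at 22 °C the order below Igfbp6 was Igfbp5, Igfbp7, Igfbp4, Igfbp3, Igf2r, Igf1r, Igfbp2, Igf1 and Igf2, and no neighbours in it overlapped between libraries. In DPP4+ cells at 6 °C Igfbp4 stood above Igfbp7, and the libraries overlapped between Igfbp6 and Igfbp5, Igfbp5 and Igfbp4, Igfbp4 and Igfbp7, Igf1r and Igfbp2, and Igfbp2 and Igf1. In DPP4- cells at 22 °C the order below Igfbp7 was Igfbp6, Igfbp5, Igfbp4, Igfbp3, Igf1, Igf2r, Igf1r, Igf2 and Igfbp2, with overlap between Igfbp3 and Igf1 and between Igf1 and Igf2r. In DPP4- cells at 6 °C Igfbp5 stood above Igfbp6 and Igfbp3 above Igfbp4, both with overlap, as had Igf1 with Igf2r and Igf2 with Igfbp2.

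Igf1 illustrates the distance between the populations on this scale, with 83.8 ± 18.3 and 80.0 ± 13.02 normalized reads per kb in DPP4+ cells at 6 and 22 °C, against 631 ± 96.8 and 606 ± 68.8 in DPP4- cells (SD, n = 5 each). Igf2 was low throughout, with mean levels between 7.70 and 11.8 per kb. As shares of the summed binding protein level per kb, Igfbp6 made up 41.6 ± 2.94% and 44.1 ± 1.35% in DPP4+ cells at 6 and 22 °C and 21.1 ± 2.71% and 26.0 ± 2.83% in DPP4- cells. Igfbp7 made up 14.5 ± 3.24% and 16.9 ± 1.71% in DPP4+ cells and 43.7 ± 2.63% and 50.5 ± 2.61% in DPP4- cells. Igfbp4 made up 15.99 ± 0.756% and 13.7 ± 0.591% in DPP4+ cells and 4.25 ± 0.489% and 5.45 ± 0.660% in DPP4- cells. A share depends on every other member of the sum, so it was not tested.

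**Figure D1:**
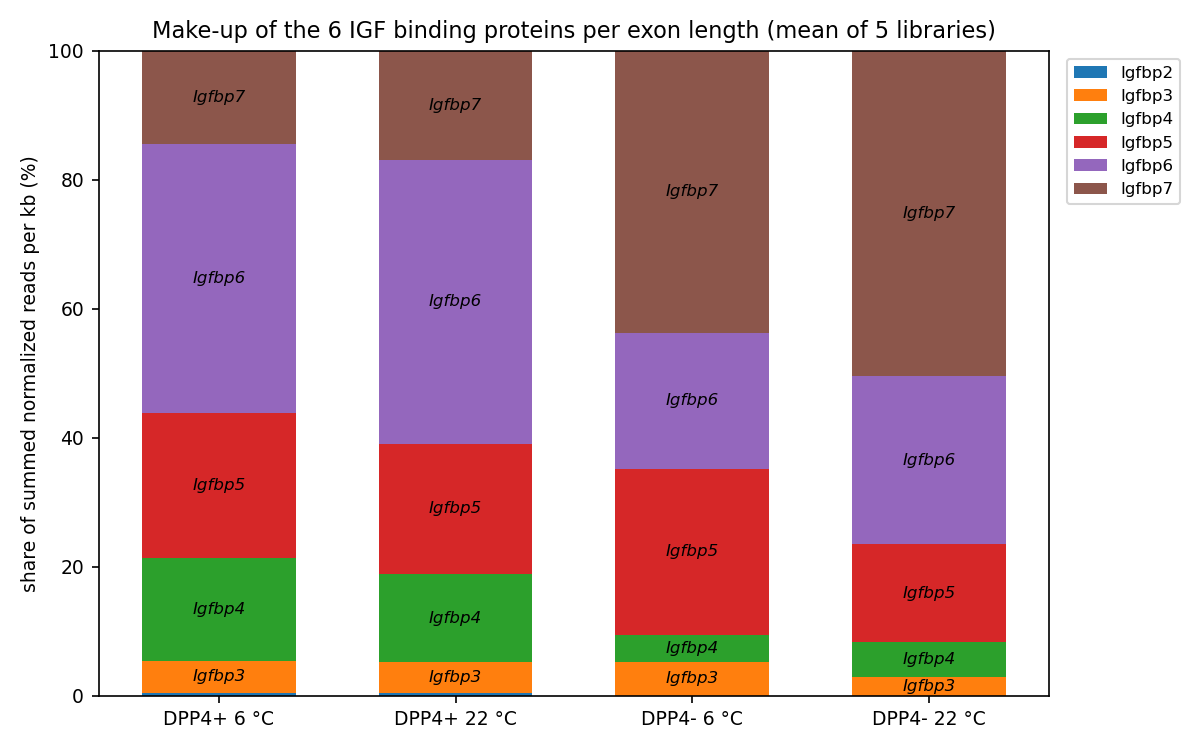
Make-up of the IGF binding protein transcripts in the 4 groups, as the mean share over 5 libraries (y axis, percent of the summed normalized reads per kb of exon). Igfbp6 is the largest segment in DPP4+ cells (41.6 and 44.1% at 6 and 22 °C), and Igfbp7 the largest in DPP4- cells (43.7 and 50.5%).

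Which IGF genes separated DPP4+ from DPP4- cells was asked at each temperature. At 22 °C Igfbp2, Igfbp4 and Igfbp6 were higher in DPP4+ cells and Igf1, Igf2r and Igfbp7 were lower, 6 of 10 genes past an adjusted p of 0.05 (limma, Benjamini-Hochberg over all tested genes). At this threshold 74.9% of all tested genes were called (38.7% higher, 36.2% lower), so the share of IGF genes was not above the background. Igfbp2 reached the filter through DPP4+ cells alone and so had to differ, and neither its call nor a count or median that includes it lends support. The groups of 5 did not overlap for these 6 genes, as for 64.8% of all genes. At 6 °C the same 6 genes passed with the same sign and without overlap (74.2% of all genes called, 38.5% higher and 35.7% lower, and 57.1% without overlap), and Igf1r, slightly higher in DPP4+ cells, was added to them. In bulk samples, fewer cells of a type and less RNA per cell cannot be told apart. The median log2 difference over the 10 genes was 0.27 at 22 °C and -0.30 at 6 °C, against 0.03 for all tested genes at each temperature.

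These values depend on how libraries are put on a common scale. The authors' scaling left totals of 10.8 to 12.1 M and 10.2 to 11.5 M normalized reads in DPP4+ libraries at 6 and 22 °C, against 15.4 to 16.2 M and 16.3 to 17.3 M in DPP4- libraries. Equal totals shifted the all-gene median log2 difference to 0.50 at 6 °C and 0.64 at 22 °C, and the split of calls over all genes was 9107 higher and 2039 lower at 22 °C, where the authors' scaling gave 5052 higher and 4730 lower. At 6 °C the split was 8240 higher and 2461 lower with equal totals and 5031 higher and 4662 lower with the authors' scaling. The signs of the 6 genes held under every scaling tried. Without the 2 libraries that stood apart, the log2 differences at 6 °C were -2.93 for Igf1, -1.46 for Igf2r, 5.02 for Igfbp2, 1.72 for Igfbp4, 0.76 for Igfbp6 and -1.69 for Igfbp7.

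Igf1, the ligand, had 673, 701, 1124, 867 and 783 normalized reads in the DPP4+ libraries at 6 °C, against 5978, 5833, 5908, 7941 and 5577 in the DPP4- libraries at 6 °C. At 22 °C it had 578, 914, 826, 855 and 786 in DPP4+ cells, against 5166, 7006, 6127, 6065 and 5639 in DPP4- cells. Every DPP4+ library was below every DPP4- library at both temperatures. The mean was 7.53-fold lower in DPP4+ cells at 6 °C (log2 difference -2.92, SE 0.14, adjusted p = 5.58e-14, limma) and 7.58-fold lower at 22 °C (-2.93, SE 0.14, adjusted p = 6.21e-14). With totals set equal, the smallest of the estimates, the log2 differences were -2.46 at 6 °C and -2.32 at 22 °C.

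Igf2r, the receptor that clears IGF2, had 1695, 1889, 1922, 1650 and 2194 normalized reads in DPP4+ cells at 6 °C, against 4471, 4447, 4744, 4800 and 5751 in DPP4- cells. At 22 °C it had 1746, 2028, 2255, 1933 and 2029 in DPP4+ cells, against 4786, 4869, 5091, 5470 and 5430 in DPP4- cells. The populations were apart at both temperatures, with means 2.59-fold lower in DPP4+ cells at 6 °C (log2 difference -1.37, SE 0.08, adjusted p = 2.68e-13, limma) and 2.57-fold lower at 22 °C (-1.36, SE 0.08, adjusted p = 3.51e-13). Airn, a noncoding RNA that overlaps Igf2r and is known for silencing it on the paternal chromosome, was lower too, at 43.2 ± 10.5 and 33.7 ± 4.31 normalized reads in DPP4+ cells at 6 and 22 °C, against 349 ± 72.7 and 358 ± 70.7 in DPP4- cells (SD, n = 5 each). Because the strand of the counting is not given in the sources used here, reads of Igf2r and Airn cannot be told apart where they overlap.

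Igf1r, the signalling receptor, had 1859, 1934, 1854, 1641 and 1485 normalized reads in DPP4+ cells at 6 °C, against 1425, 1530, 1440, 1781 and 1224 in DPP4- cells. The groups overlapped, with 3 DPP4+ libraries above all DPP4- libraries. The difference at 6 °C passed narrowly (log2 difference 0.25, SE 0.11, adjusted p = 0.0468, limma) and was lost in 10 of 24 alternatives, among them TMM scaling (adjusted p = 0.0581) and the omission of any of 7 single libraries (adjusted p up to 0.142, without DPP4- replicate 5). At 22 °C Igf1r did not pass (0.16, SE 0.11, adjusted p = 0.191). Igf2 did not pass at either temperature (log2 difference -0.46, SE 0.29, adjusted p = 0.163 at 6 °C; 0.31, SE 0.29, adjusted p = 0.343 at 22 °C).

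Igfbp2, a binding protein with an integrin-binding motif, had 191, 146, 155, 173 and 87.5 normalized reads in DPP4+ cells at 6 °C, against 6.70, 5.45, 9.45, 7.53 and 0 in DPP4- cells. At 22 °C it had 170, 162, 142, 163 and 149 in DPP4+ cells, against 2.70, 1.501, 2.52, 7.68 and 2.57 in DPP4- cells. The DPP4- values rest on 0 to 7 whole reads per library, so the ratios of means, 25.9 at 6 °C and 46.3 at 22 °C, are imprecise. The fitted log2 difference, given as a description with no test, was 4.77 at 6 °C (SE 0.46) and 5.31 at 22 °C (SE 0.46).

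Igfbp4, an inhibitory binding protein that is the best known target of PAPP-A, had 14489, 16349, 15798, 16715 and 19240 normalized reads in DPP4+ cells at 6 °C, against 4015, 5639, 5194, 5882 and 4335 in DPP4- cells. At 22 °C it had 10942, 11797, 13793, 13027 and 13032 in DPP4+ cells, against 7382, 5390, 5151, 5809 and 5900 in DPP4- cells. Every DPP4+ library was higher, by 3.30-fold on the means at 6 °C (log2 difference 1.73, SE 0.11, adjusted p = 5.35e-13, limma) and 2.11-fold at 22 °C (1.09, SE 0.11, adjusted p = 2.59e-09).

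Igfbp6 had 9581, 12638, 11354, 11393 and 16633 normalized reads in DPP4+ cells at 6 °C, against 7010, 8716, 6546, 6048 and 6856 in DPP4- cells. At 22 °C it had 10091, 10463, 12227, 11596 and 12853 in DPP4+ cells, against 9832, 7190, 7449, 7550 and 8112 in DPP4- cells. The groups were apart by a small margin, and the means were 1.75-fold higher in DPP4+ cells at 6 °C (log2 difference 0.79, SE 0.12, adjusted p = 3.28e-06, limma) and 1.43-fold higher at 22 °C (0.52, SE 0.12, adjusted p = 0.000562).

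Igfbp7 had 4920, 4436, 4533, 5026 and 3715 normalized reads in DPP4+ cells at 6 °C, against 13888, 18433, 16844, 15263 and 14917 in DPP4- cells. At 22 °C it had 4867, 4852, 4354, 4761 and 4836 in DPP4+ cells, against 18288, 16826, 15647, 15854 and 17785 in DPP4- cells. The lowest DPP4- library held more than any DPP4+ library, and the means were 3.51-fold lower in DPP4+ cells at 6 °C (log2 difference -1.81, SE 0.08, adjusted p = 1.97e-15, limma) and 3.57-fold lower at 22 °C (-1.83, SE 0.08, adjusted p = 1.89e-15). Igfbp7 overlaps the neighbouring gene Polr2b in the RefSeq annotation, so shared reads cannot be assigned. Summed endothelial markers (7 of 7 tested) were 2776 to 4270 and 2577 to 3290 normalized reads in DPP4+ libraries at 6 and 22 °C. In DPP4- libraries the sums were 888 to 1354 and 970 to 1394. Tek made up most of this sum, averaging 2983 and 2811 in DPP4+ cells and 944 and 888 in DPP4- cells. Pecam1, Cdh5, Tie1, Cldn5 and Vwf averaged lower in DPP4+ cells at both temperatures. Kdr averaged higher there at 6 °C (251 against 42.6) and lower at 22 °C (30.3 against 40.4). Among pericyte and smooth muscle markers, Abcc9, Notch3, Myh11 and Rgs5 averaged lower in DPP4+ cells at both temperatures. Acta2 averaged higher there, at 3083 and 6046 normalized reads at 6 and 22 °C against 44.5 and 45.6 in DPP4- cells. Cspg4 and Kcnj8 changed side between the temperatures. The part of the endothelial, pericyte and smooth muscle markers in the Igfbp7 difference was not tested.

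Igfbp3, the main carrier of IGF in blood, and Igfbp5, which binds matrix and bone mineral, did not pass in either comparison of the populations. At 6 °C the log2 difference was -0.23 for Igfbp3 (SE 0.23, adjusted p = 0.391, limma) and -0.37 for Igfbp5 (SE 0.19, adjusted p = 0.0855). At 22 °C it was 0.51 for Igfbp3 (SE 0.23, adjusted p = 0.0590) and 0.24 for Igfbp5 (SE 0.19, adjusted p = 0.265). Igfbp3 at 22 °C passed as higher in DPP4+ cells in 7 of 24 alternatives, among them totals set equal (1.12, adjusted p = 0.000319) and quantile normalization (0.92, adjusted p = 0.00111). Igfbp5 at 22 °C passed in 2, totals set equal (0.85, adjusted p = 0.000549) and quantile normalization (0.996, adjusted p = 2.75e-05). Without the libraries that stood apart, Igfbp5 passed at 6 °C as lower in DPP4+ cells (-0.60, adjusted p = 0.00791), and with totals set equal its value there was 0.10 and did not pass.

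**Figure D2:**
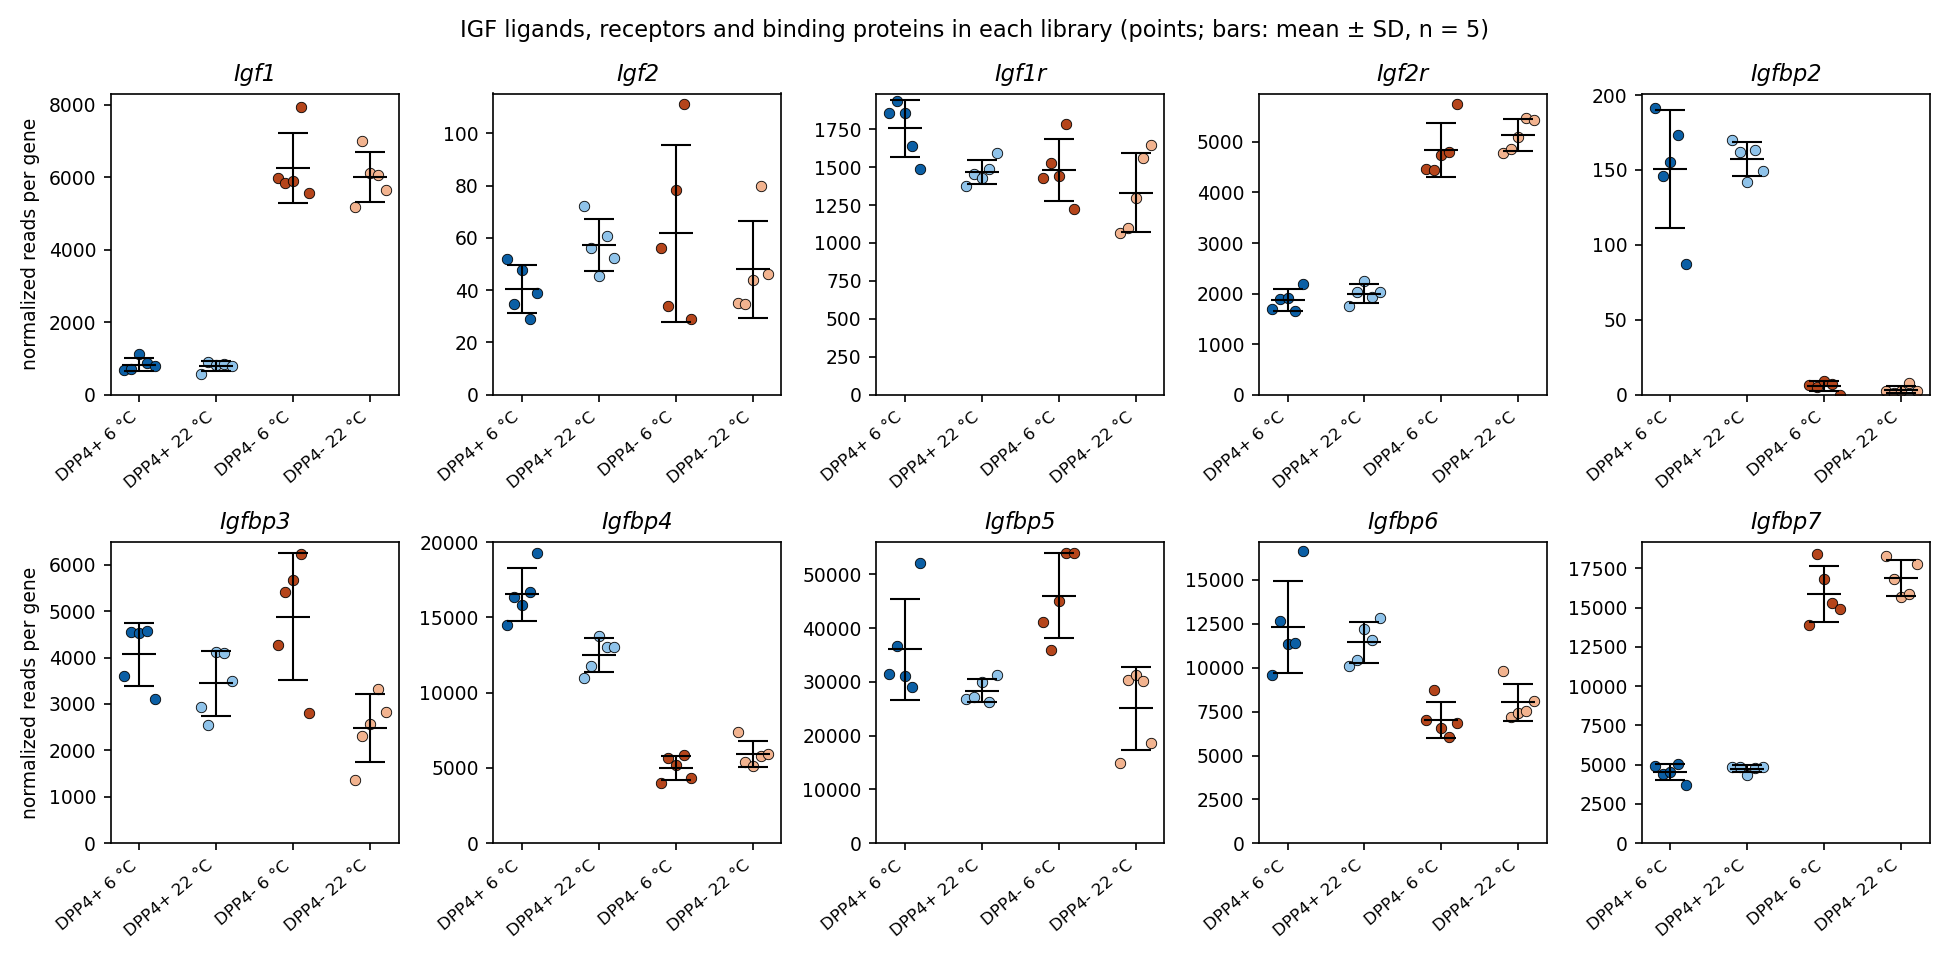
Normalized reads of the 10 IGF genes in each library (points, y axis from 0) for DPP4+ cells at 6 and 22 °C and DPP4- cells at 6 and 22 °C, with bars for mean ± SD (n = 5). DPP4+ points lie apart from DPP4- points for Igf1, Igf2r, Igfbp2, Igfbp4, Igfbp6 and Igfbp7, and the 6 °C points lie above the 22 °C points for Igfbp4 in DPP4+ cells and Igfbp5 in DPP4- cells.

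The 4 binding proteins that differed between the populations at both temperatures are shown with the 250 bases before a transcript start. They divide into genes higher (Igfbp2, Igfbp4, Igfbp6) and lower (Igfbp7) in DPP4+ cells. Igfbp2 reached the filter through DPP4+ cells alone and so had to differ, and its place among the higher genes lends no support. The sequences are from RefSeq on GRCm38.p6, read 5′ to 3′ on the gene's strand, with capitals where a script found, on either strand, the TATA box core TATAAA, the CCAAT box (letters CCAAT) or the core of the GC box with letters GGGCGG. They lie at chr1:72824230-72824479 (+) for Igfbp2, chr11:99040994-99041243 (+) for Igfbp4, chr15:102143936-102144185 (+) for Igfbp6 and chr5:77408046-77408295 (-) for Igfbp7. The Igfbp4 window lies inside the annotated span of the gene, which begins further upstream at 99040005.
Igfbp2 promoter: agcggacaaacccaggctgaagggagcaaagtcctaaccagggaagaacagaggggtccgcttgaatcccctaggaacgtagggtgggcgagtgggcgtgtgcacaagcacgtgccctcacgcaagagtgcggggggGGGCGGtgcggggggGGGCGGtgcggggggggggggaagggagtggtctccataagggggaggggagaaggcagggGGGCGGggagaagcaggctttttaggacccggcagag
Igfbp4 promoter: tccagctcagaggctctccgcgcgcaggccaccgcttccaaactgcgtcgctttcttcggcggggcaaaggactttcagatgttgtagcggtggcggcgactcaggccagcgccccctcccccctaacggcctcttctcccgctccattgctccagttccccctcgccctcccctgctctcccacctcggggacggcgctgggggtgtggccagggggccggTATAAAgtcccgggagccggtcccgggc
Igfbp6 promoter: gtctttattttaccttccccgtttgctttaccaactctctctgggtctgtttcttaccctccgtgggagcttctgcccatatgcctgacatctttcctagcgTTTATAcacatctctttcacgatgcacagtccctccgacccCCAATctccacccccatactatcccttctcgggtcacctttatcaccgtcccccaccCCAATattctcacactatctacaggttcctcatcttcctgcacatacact
Igfbp7 promoter: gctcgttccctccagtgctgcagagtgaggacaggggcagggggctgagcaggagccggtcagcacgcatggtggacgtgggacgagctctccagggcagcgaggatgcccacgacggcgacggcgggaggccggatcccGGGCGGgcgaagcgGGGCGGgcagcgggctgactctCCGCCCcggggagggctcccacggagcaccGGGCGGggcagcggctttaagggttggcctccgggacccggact
TATAAA occurred 28 bases before the Igfbp4 start and, on the other strand, 148 bases before the Igfbp6 start, and 12.4% of 32851 RefSeq promoter windows of this length held it. CCAAT occurred only in the Igfbp6 window among these 4, 2 times, and 33.9% of all windows held it. GGGCGG occurred 3 times in the Igfbp2 window and 4 times in the Igfbp7 window, and 32.7% of all windows held it. The GC content was 67.2% for Igfbp2, 69.2% for Igfbp4, 49.6% for Igfbp6 and 74.0% for Igfbp7, against a median of 52.4%. None of the patterns marked in capitals separated all 3 genes higher in DPP4+ cells from the gene lower there. The windows were not searched for letter patterns in general, and 3 windows against 1 are too few for such a search. The cyclic AMP response element TGACGTCA was in none of the 14 windows of the 10 IGF genes, and 1.55% of all windows held it.

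The response to 24 h at 6 °C was asked within each population. In DPP4+ cells Igfbp4 was the only IGF gene past the threshold, 1 of 10, where 46.1% of all tested genes were called (23.5% higher, 22.6% lower). Its 5 libraries at 6 °C, 14489 to 19240 normalized reads, all exceeded the 5 at 22 °C, 10942 to 13793, as the groups were apart for 38.4% of all genes. The mean was 1.32-fold higher at 6 °C, 16518 ± 1740 against 12518 ± 1135 (SD, n = 5 each; log2 difference 0.40, SE 0.11, adjusted p = 0.00378, limma). It passed in all 23 alternatives, with 0.34 without the libraries that stood apart (adjusted p = 0.0109).

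Igf1r in DPP4+ cells had 1859, 1934, 1854, 1641 and 1485 normalized reads at 6 °C, against 1377, 1453, 1429, 1488 and 1590 at 22 °C. Of the 5 libraries at 6 °C, 4 were above all at 22 °C, and replicate 5 was within their range. The difference did not pass (log2 difference 0.25, SE 0.11, adjusted p = 0.0666, limma), and it passed in 5 of 23 alternatives, among them the fit without the libraries that stood apart (0.31, adjusted p = 0.0342). Igf2, at 40.4 ± 9.27 against 57.4 ± 9.93 normalized reads, did not pass (-0.51, SE 0.29, adjusted p = 0.160) and passed in 2 of 23 alternatives. Igfbp5 in DPP4+ cells had 31460, 36654, 31044, 29051 and 52095 normalized reads at 6 °C, against 26880, 27226, 29898, 26351 and 31336 at 22 °C, so its higher mean rested largely on replicate 5, and it did not pass (0.32, SE 0.19, adjusted p = 0.183; 0.18 without the libraries that stood apart). The adjusted p was above 0.3 for each of the other 6, Igf1, Igf2r, Igfbp2, Igfbp3, Igfbp6 and Igfbp7, with log2 differences between -0.10 and 0.25.

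In DPP4- cells Igfbp3 and Igfbp5 were higher at 6 °C, 2 of 10 IGF genes, where 5.22% of all tested genes were called (1.98% higher, 3.23% lower). Igfbp3 had 4270, 5418, 5678, 6232 and 2803 normalized reads at 6 °C, against 1372, 2301, 2578, 3331 and 2832 at 22 °C. Its groups overlapped through replicate 5 at 6 °C, and the means stood 1.97-fold apart (4880 ± 1364 against 2483 ± 728, SD, n = 5 each; log2 difference 0.98, SE 0.23, adjusted p = 0.0205, limma). Igfbp5 had 41206, 35949, 45008, 54043 and 54040 normalized reads at 6 °C, against 14958, 30276, 31238, 30233 and 18590 at 22 °C. All 5 libraries at 6 °C were above all at 22 °C, as for 4.87% of all genes, and the means stood 1.84-fold apart (46049 ± 7973 against 25059 ± 7682; log2 difference 0.92, SE 0.19, adjusted p = 0.00734).

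Both calls in DPP4- cells were lost when only the 10 DPP4- libraries entered the fit (adjusted p = 0.135 for Igfbp3 and 0.0756 for Igfbp5, limma), and the Igfbp3 call was lost without replicate 3 at 6 °C (adjusted p = 0.0522). Without the libraries that stood apart both held (log2 difference 0.93, adjusted p = 0.0381 for Igfbp3; 1.008, adjusted p = 0.00195 for Igfbp5). DPP4- replicate 1 at 22 °C and replicate 5 at 6 °C also lay apart on the principal components and stayed in that fit. Both calls held when either of these was left out alone. Summed adipocyte markers (4 of 6 tested) were 123 to 326 normalized reads in DPP4- libraries at 6 °C, against 27.0 to 140 at 22 °C. Summed mesothelial markers (2 of 6 tested) were 52.3 to 76.4 against 20.3 to 46.1. Most of the mesothelial difference came from Lrrn4, averaging 36.9 against 8.42. Krt19, Wt1 and Upk1b averaged slightly higher at 6 °C, and Msln (0.54 against 1.48) and Upk3b (3.67 against 4.55) lower. The part of these markers in the Igfbp3 and Igfbp5 differences was not tested. The remaining 8 IGF genes did not pass in DPP4- cells. Igfbp4, at 4015 to 5882 normalized reads at 6 °C against 5151 to 7382 at 22 °C, had a log2 difference of -0.25 (SE 0.11, adjusted p = 0.186).

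Whether the cold response differed between the populations was tested as the difference of the log2 differences, DPP4+ minus DPP4-. Igfbp4 passed, 1 of 10, where 33.2% of all tested genes were called, 16.8% with a positive and 16.4% with a negative value (0.64, SE 0.15, 95% interval 0.33 to 0.96, adjusted p = 0.00202, limma). It passed in all 33 alternatives, with values between 0.50 and 0.71. Igfbp3 did not pass (-0.73, SE 0.33, 95% interval -1.43 to -0.04, adjusted p = 0.0995), nor did Igfbp5 (-0.61, SE 0.27, 95% interval -1.17 to -0.05, adjusted p = 0.0900). Igfbp3 passed in 3 of 33 alternatives, among them a replicate block within temperature (adjusted p = 0.00371). Igfbp5 passed without the libraries that stood apart (-0.83, adjusted p = 0.0145). For Igf1 the difference was 0.01 with a 95% interval of -0.40 to 0.41, and for Igfbp7 it was 0.02 with an interval of -0.22 to 0.26.

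**Figure D3:**
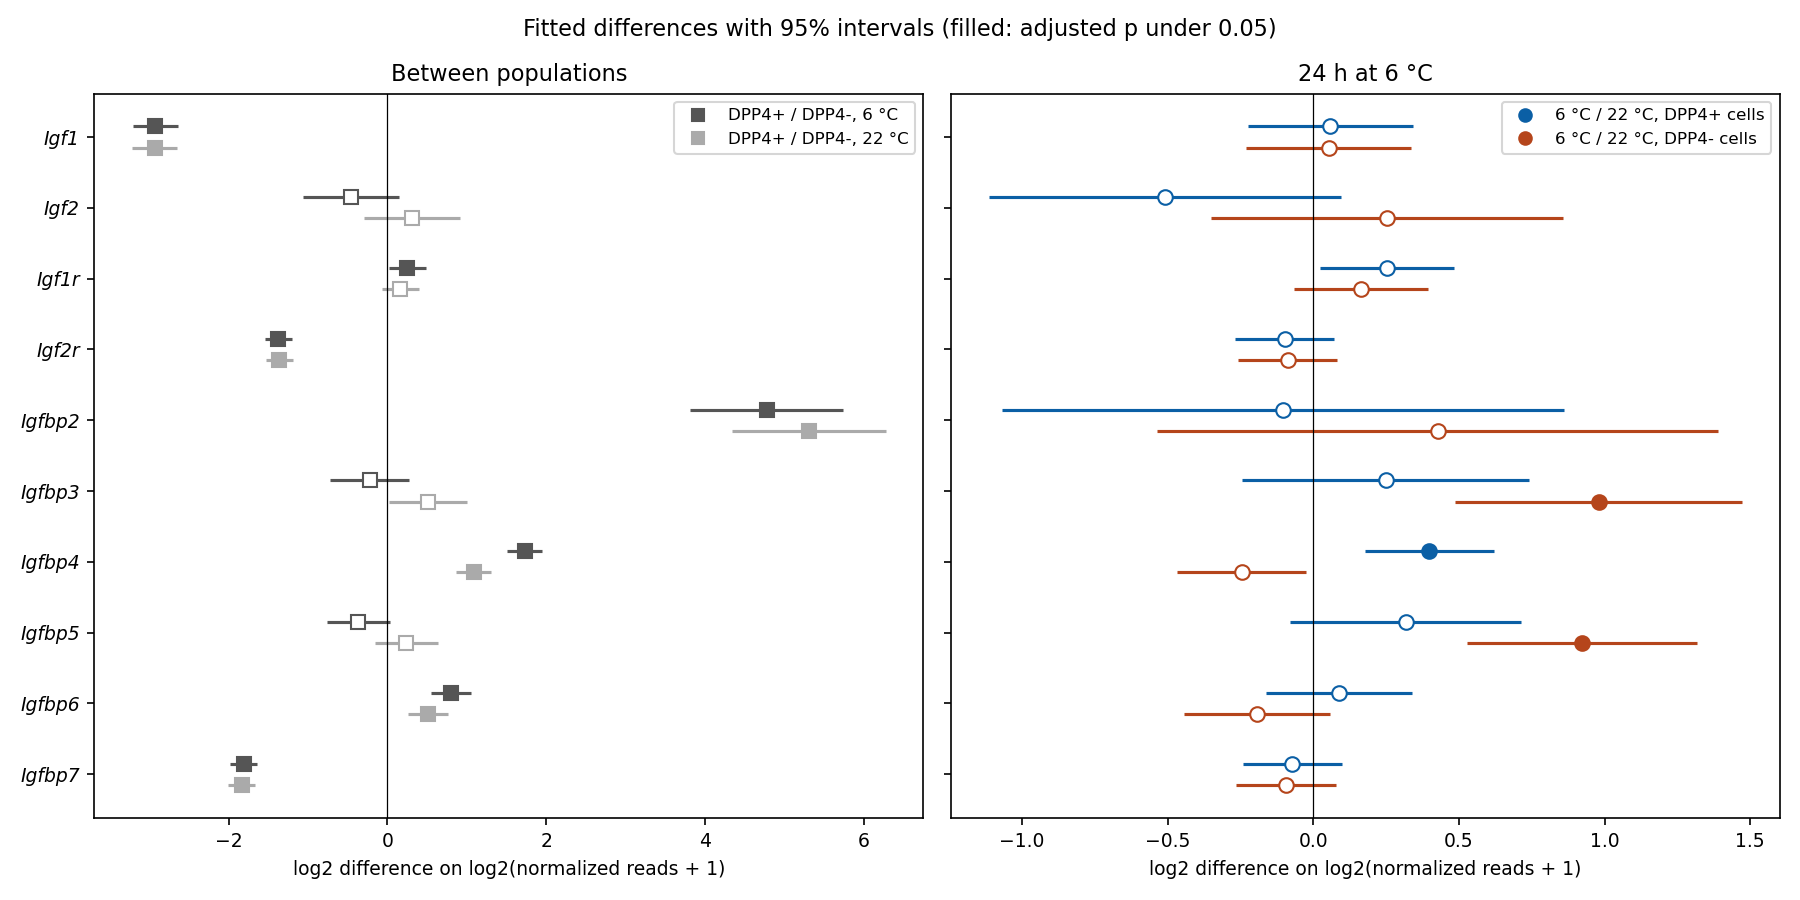
Fitted log2 differences of the 10 IGF genes with 95% intervals (x axis, log2 of normalized reads plus 1). The left panel sets DPP4+ over DPP4- cells at 6 and 22 °C and the right panel 6 over 22 °C in each population. Filled symbols passed an adjusted p of 0.05, and in the right panel these are Igfbp4 in DPP4+ cells and Igfbp3 and Igfbp5 in DPP4- cells.

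Genes that act on the binding proteins were listed apart from the 10. This list and the gene lists that follow were chosen with earlier results of these data known. Their counts are therefore descriptions and lend no support. Of 12 relatives, proteases and protease inhibitors, 8 were tested, and in DPP4+ cells 5 were higher and 3 lower at 6 °C, with a median log2 difference of 0.37 against 0.01 for all genes, of which 46.1% were called (23.5% higher, 22.6% lower). In DPP4- cells, where 5.22% of all genes were called, 1 was higher and none lower, with a median of 0.01 against 0.00 for all genes. At an unadjusted p under 0.05 the DPP4- count was 2, and without the libraries that stood apart the counts were 4 higher and 3 lower in DPP4+ cells and 1 higher in DPP4- cells. The difference of the cold effects passed for 6 of the 8, 4 of them more positive in DPP4+ cells, against 33.2% of all genes (16.8% positive, 16.4% negative). Igfbp1, Igfals, Igfbpl1 and Esm1 were too low to test.

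Pappa2, a protease that cuts IGFBP3 and IGFBP5, had 297, 273, 322, 243 and 160 normalized reads in DPP4+ cells at 6 °C, against 74.6, 94.3, 118, 82.7 and 102 at 22 °C. All libraries at 6 °C were higher (log2 difference 1.43, SE 0.22, adjusted p = 1.26e-05, limma). In DPP4- cells it averaged 35.9 ± 12.5 at 6 °C and 34.4 ± 7.003 at 22 °C (SD, n = 5 each), and the difference of the cold effects was 1.42 (SE 0.31, adjusted p = 0.00113). Pappa, which cuts IGFBP4 and IGFBP5, averaged 429 ± 113 normalized reads in DPP4+ cells at 6 °C, against 235 ± 33.0 at 22 °C, and the difference passed (0.83, SE 0.18, adjusted p = 0.000927). In replicate 5, which stood apart, Pappa was 257, within the 22 °C range of 210 to 288. In DPP4- cells Pappa averaged 332 ± 81.7 at 6 °C and 324 ± 48.3 at 22 °C.

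The stanniocalcins Stc1 and Stc2, secreted inhibitors of these proteases, moved the other way. Stc1 had 110, 94.7, 104, 108 and 68.1 normalized reads in DPP4+ cells at 6 °C, against 389, 360, 296, 355 and 329 at 22 °C. No library at 6 °C reached the lowest at 22 °C (log2 difference -1.84, SE 0.32, adjusted p = 0.000122, limma). Stc2 had 42.3, 49.97, 56.3, 46.9 and 51.6 in DPP4+ cells at 6 °C, against 148, 121, 95.5, 137 and 99.6 at 22 °C, again without overlap (-1.25, SE 0.27, adjusted p = 0.000436). In DPP4- cells Stc1 averaged 66.1 ± 33.0 at 6 °C and 50.9 ± 10.02 at 22 °C, and Stc2 averaged 9.20 ± 5.80 and 15.01 ± 3.95 (SD, n = 5 each). The difference of the cold effects passed for Stc1 (-2.02, SE 0.46, adjusted p = 0.00222) and did not for Stc2 (-0.48, SE 0.37, adjusted p = 0.353).

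Htra4, a secreted serine protease, showed the largest log2 difference of the list in DPP4+ cells, at 142 ± 27.1 normalized reads at 6 °C against 24.4 ± 2.79 at 22 °C (2.48, SE 0.18, adjusted p = 5.64e-11, limma). In DPP4- cells Htra4 was 30.5 ± 7.63 against 19.03 ± 2.98 (0.63, SE 0.18, adjusted p = 0.0394), a call that held in 12 of 23 alternatives. Of the other members in DPP4+ cells, Htra1, which cuts IGFBP5, was higher (0.45, adjusted p = 0.00220), as was Htra3 (0.30, adjusted p = 0.0181, held in 21 of 23 alternatives and lost without the libraries that stood apart, adjusted p = 0.0631), and Adam12, a metalloprotease that cuts IGFBP3 and IGFBP5, was lower (-0.75, adjusted p = 0.00284). In the same DPP4+ libraries summed pericyte and smooth muscle markers (7 of 7 tested) were 2640 to 4290 normalized reads at 6 °C against 5879 to 7483 at 22 °C. Acta2 made up most of this sum, averaging 3083 against 6046. Cspg4, Notch3 and Myh11 also averaged lower at 6 °C, while Abcc9 (342 against 222), Kcnj8 (48.0 against 18.5) and Rgs5 averaged higher. Summed adipocyte markers were 286 to 535 against 574 to 836. The part of these markers in the differences above was not tested. Without the libraries that stood apart, the log2 differences in DPP4+ cells were 1.003 for Pappa, 1.59 for Pappa2, -1.72 for Stc1, -1.27 for Stc2 and 2.61 for Htra4. The plot of the 4 genes by library shows both proteases and both inhibitors.

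**Figure D4:**
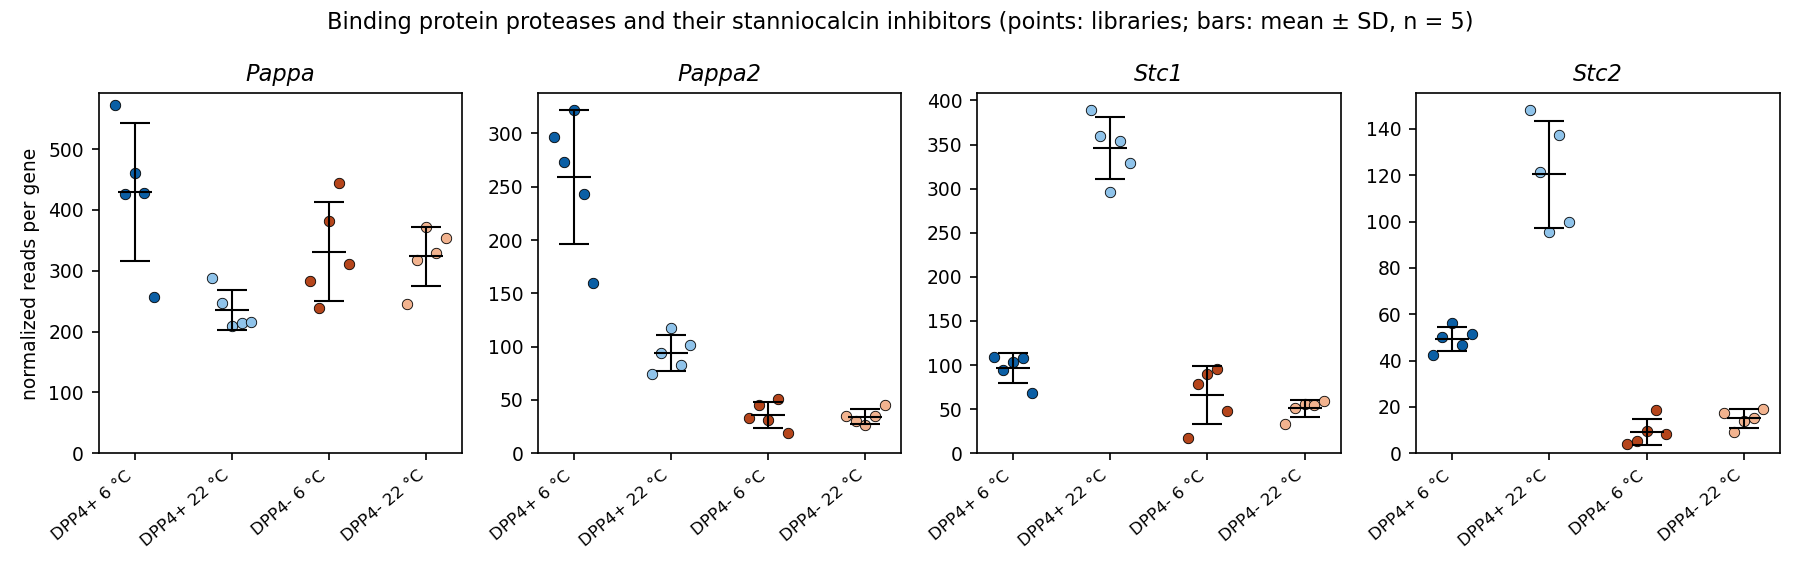
Normalized reads of the proteases Pappa and Pappa2 and of their inhibitors Stc1 and Stc2 in each library (points, y axis from 0), with bars for mean ± SD (n = 5). In DPP4+ cells Pappa2 lies higher (160 to 322 against 74.6 to 118) and Stc1 lower (68.1 to 110 against 296 to 389) at 6 °C than at 22 °C.

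Between the populations the same list split, DPP4+ cells having 5 genes higher and 2 lower at 6 °C and 3 higher and 3 lower at 22 °C, where 74.2 and 74.9% of all genes were called, so the shares called were near the background. Pappa2 was higher in DPP4+ cells at both temperatures (log2 difference 2.85 at 6 °C and 1.43 at 22 °C, adjusted p = 5.83e-11 and 3.54e-06, limma), as was Stc2 (2.47 and 2.94, adjusted p = 1.10e-08 and 5.24e-10). Adam12 was lower in DPP4+ cells at both (-2.17 and -1.25, adjusted p = 3.90e-09 and 6.97e-06), as was Htra1 (-0.50 and -1.09, adjusted p = 0.000372 and 6.93e-09), the first of these held in 22 of 24 alternatives. With totals set equal the counts were 6 higher and 1 lower at 6 °C and 5 higher and 2 lower at 22 °C.

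Downstream of the receptors, 17 of 18 genes of proximal signalling were tested, and in DPP4+ cells 4 were higher and 6 lower at 6 °C (median log2 difference 0.13), where 46.1% of all genes were called. In DPP4- cells none passed (6 at an unadjusted p under 0.05; 5 higher with totals set equal and 3 without the libraries that stood apart). Grb14, an adaptor that inhibits insulin receptor family signalling, had the smallest p, at 10.7 ± 2.12 normalized reads in DPP4+ cells at 6 °C against 195 ± 21.8 at 22 °C (-4.08, SE 0.16, adjusted p = 2.28e-15, limma). In DPP4- cells Grb14 was 119 ± 32.5 at 6 °C and 125 ± 19.1 at 22 °C, and the difference of the cold effects passed (-3.99, SE 0.23, adjusted p = 5.33e-12). Without the libraries that stood apart, the Grb14 values were -4.03 in DPP4+ cells and -3.97 for the difference, and the list had 6 higher and 6 lower in DPP4+ cells. Also in DPP4+ cells, the ubiquitin ligase Nedd4 was lower (-0.56, adjusted p = 2.27e-08), and the phosphatase Ptpn1 (0.50, adjusted p = 1.02e-06) and the signalling suppressor Socs1 (0.68, adjusted p = 1.03e-06) were higher.

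Of 24 genes of the PI3K, AKT and FOXO branch, 5 were higher and 5 lower at 6 °C in DPP4+ cells (median 0.01), a share near the 46.1% of all genes called. Pik3r1, the p85 alpha regulatory subunit of PI3-kinase, was 695 ± 36.6 normalized reads at 6 °C against 1826 ± 108 at 22 °C (log2 difference -1.39, SE 0.07, adjusted p = 5.33e-14, limma; -1.37 without the libraries that stood apart). Rptor, a subunit of mTORC1, was higher (0.62, adjusted p = 1.73e-07), and Pik3ip1, an inhibitor of PI3-kinase, was lower (-1.34, adjusted p = 2.17e-06). In DPP4- cells 1 of 24 passed, the transcription factor Foxo3, which was lower (-0.32, SE 0.07, adjusted p = 0.0113) and passed in 22 of 23 alternatives.

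Between the populations, proximal signalling genes were lower in DPP4+ cells in 13 cases and higher in 1 at 6 °C, and lower in 10 and higher in 4 at 22 °C. The median log2 difference was -0.39 and -0.44, against 0.03 for all genes at each temperature. Of all genes, 74.2% were called at 6 °C (35.7% lower) and 74.9% at 22 °C (36.2% lower). With totals set equal the counts were 7 higher and 6 lower at 6 °C and 8 higher and 4 lower at 22 °C, so the direction of the list depends on the scaling. Irs1, a docking protein of IGF1R and the insulin receptor, was 458 ± 64.1 and 654 ± 32.3 normalized reads in DPP4+ cells at 6 and 22 °C, against 1684 ± 334 and 1298 ± 145 in DPP4- cells (SD, n = 5 each). The log2 difference was -1.86 at 6 °C (adjusted p = 2.60e-12, limma) and -0.98 at 22 °C (adjusted p = 9.74e-08). The cold effect on Irs1 differed between the populations (-0.88, SE 0.16, adjusted p = 0.000255), as did that on its relative Irs3 (-1.62, SE 0.38, adjusted p = 0.00199). Irs3 was low, at 5.66 ± 2.49 and 14.7 ± 3.67 normalized reads in DPP4+ cells at 6 and 22 °C. In DPP4- cells it was 28.9 ± 11.5 and 21.3 ± 2.76. Socs1 and Socs3, suppressors of cytokine and insulin signalling, were lower in DPP4+ cells at 6 °C (-1.93 and -2.36, adjusted p = 2.10e-15 and 2.82e-15) and at 22 °C (-2.39 and -2.45, adjusted p = 5.34e-17 and 1.81e-15), under every alternative tried. The summed immediate early genes, known to rise during tissue dissociation and holding no member of this list, were 28500 to 51587 normalized reads in DPP4+ libraries at 6 °C and 33863 to 44199 at 22 °C, against 144034 to 189775 and 147598 to 198784 in DPP4- libraries, and their part in these differences was not tested. Insr, the insulin receptor, was lower at 22 °C (-0.65, adjusted p = 3.20e-08) except with totals set equal.

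In the PI3K, AKT and FOXO branch, DPP4+ cells had 6 genes higher and 11 lower at 6 °C, and 9 higher and 11 lower at 22 °C, near the 74.2 and 74.9% of all genes called. With totals set equal the counts were 14 higher and 3 lower at 6 °C and 18 higher and 2 lower at 22 °C. Akt2, a kinase of insulin signalling, was 1454 ± 106 and 1371 ± 59.1 normalized reads in DPP4+ cells at 6 and 22 °C, against 2421 ± 162 and 2238 ± 51.3 in DPP4- cells (SD, n = 5 each). It was lower in DPP4+ cells (log2 difference -0.74 at 6 °C and -0.71 at 22 °C, adjusted p = 2.70e-11 and 5.99e-11, limma), as were Foxo3 (-0.68 and -0.90, adjusted p = 1.23e-08 and 1.03e-10), Foxo1 (-0.76 and -0.71, adjusted p = 2.80e-09 and 8.08e-09) and the kinase Gsk3a (-0.47 and -0.71, adjusted p = 6.26e-07 and 7.12e-10). Of these 4 genes, Foxo3 alone passed at both temperatures in all 24 alternatives. The cold effect differed between the populations for Pik3r1 (-1.27, adjusted p = 4.31e-10), Rptor (0.68, adjusted p = 1.64e-05), Pik3ip1 (-1.67, adjusted p = 2.45e-05) and the regulatory subunit Pik3r3 (-0.98, adjusted p = 0.000465).

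The growth hormone axis, which controls Igf1 in many tissues, was measured with 6 of 7 genes. In DPP4+ cells 2 were higher and 1 lower at 6 °C, near the 46.1% of all genes called, and in DPP4- cells 1 was higher, where 5.22% of all genes were called. Socs2, a feedback inhibitor of growth hormone signalling, was 749 ± 94.5 normalized reads in DPP4+ cells at 6 °C against 439 ± 29.2 at 22 °C (log2 difference 0.76, SE 0.11, adjusted p = 4.48e-06, limma). In DPP4- cells Socs2 was 151 ± 23.0 against 89.3 ± 14.7 (0.75, SE 0.11, adjusted p = 0.000360). Ghr, the growth hormone receptor, was lower at 6 °C in DPP4+ cells (1146 ± 155 against 1541 ± 92.7; -0.43, adjusted p = 7.45e-05), and the STAT5 target Cish was higher (0.42, adjusted p = 0.00291). Igf1 itself did not pass in either population, with log2 differences of 0.06 and 0.05 (95% intervals -0.22 to 0.34 and -0.23 to 0.34).

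Between the populations, 5 of these 6 genes were lower in DPP4+ cells and 1, Socs2, was higher, at each temperature, where 74.2% (6 °C) and 74.9% (22 °C) of all genes were called, 35.7 and 36.2% as lower. Stat5a, a transcription factor activated by cytokine receptors, was 944 ± 85.5 and 876 ± 171 normalized reads in DPP4+ cells at 6 and 22 °C, against 4313 ± 590 and 4351 ± 549 in DPP4- cells (log2 difference -2.18 and -2.32, adjusted p = 5.55e-13 and 2.21e-13, limma). Stat5b, the main mediator of growth hormone action on Igf1, was 936 ± 50.1 and 943 ± 64.2 in DPP4+ cells, against 1395 ± 52.9 and 1299 ± 70.4 in DPP4- cells (-0.58 and -0.46, adjusted p = 1.85e-09 and 7.53e-08). The receptor's kinase Jak2 was lower as well (-1.11 and -0.94, adjusted p = 2.24e-10 and 4.01e-09), as was Cish (-1.68 and -1.81, adjusted p = 1.99e-12 and 5.50e-13). Socs2 was higher (2.31 and 2.30, adjusted p = 4.07e-15 and 5.30e-15). With totals set equal the counts were 1 higher and 4 lower at 6 °C and 3 higher and 3 lower at 22 °C. Stat5b was then among the genes higher in DPP4+ cells at 22 °C, so the direction of its small difference depends on the scaling.

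Of the IGF2 mRNA-binding proteins and the neighbours of Igf2, 4 of 7 were tested, and 1 was lower in DPP4+ cells at 6 °C (46.1% of all genes called). H19, the noncoding RNA imprinted together with Igf2, was lower at 6 °C in DPP4+ cells, at 117 ± 20.2 normalized reads against 217 ± 25.0 (log2 difference -0.89, SE 0.26, adjusted p = 0.00848, limma). In DPP4- cells it was 263 ± 91.7 against 210 ± 77.8, and the difference of the cold effects passed (-1.24, SE 0.37, adjusted p = 0.0139). Igf2bp2, which binds Igf2 mRNA, was lower in DPP4+ cells at both temperatures, at 615 ± 70.3 and 611 ± 72.3 against 1528 ± 134 and 1445 ± 188 in DPP4- cells (-1.32 and -1.24, adjusted p = 1.89e-11 and 5.94e-11). Igf2bp3 was higher (0.77 and 0.57, adjusted p = 0.000785 and 0.00828), the second value not passing in 1 of 24 alternatives.

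The genes most like each IGF gene were taken as those with the highest Pearson correlation of log2(normalized reads + 1) over the 20 libraries, which share 4 groups and so mostly reflect the group differences; no test was made. Igf1 was most like Spred1 (r = 0.99) and Cxcl9 (0.99), Igf2r most like Adamts12 (0.99) and Adamts14 (0.99), and Igfbp7 most like Slc7a8 (0.995) and Ptgir (0.99). Igfbp2 was most like Dchs1 (0.98) and Ncam1 (0.98), Igfbp4 most like Il13ra1 (0.98) and Nptn (0.98), and Igfbp6 most like Ntn1 (0.98) and Qpct (0.96). The genes that did not differ between the populations at both temperatures had looser companions. These were Igfbp5 with Angptl2 (0.86) and Krt36 (0.79), Igf1r with Iars (0.85) and Pthlh (0.84), Igfbp3 with COX1 (0.77) and Eif2s2 (0.75), and Igf2 with Dclk2 (0.70) and Sncaip (0.68).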

How the data were processed

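The authors deposited 1 table whose signal is the normalized read count of each gene, in a column for every library. The submitters' processing notes name DESeq2 1.6.3, featureCounts 1.4.6, HISAT2 2.0.1 and Trim Galore 0.4.1, with the builds GRCm38 and mm10 named; the annotation and the strand are not given in the sources used here. Per the labels' protocols, NEBNext Ultra II chemistry was used for libraries, from RNA extracted by RNAqueous micro columns. In each library every value (100%, tolerance 0.1 read) was a multiple of 1 step, the worth of a read, which gave back the whole reads. Reads per library were 8.49 to 18.8 M (mega). Rows without a symbol (958) took 0.0610 to 0.0824% of the reads. They were kept under their gene IDs and met the same filter for testing as other genes. In addition, 26 symbols turned into dates by a spreadsheet were restored from gene IDs.

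The 13057 genes averaging 10 or more normalized reads entered limma 3.58.1 on log2(value + 1) in R 4.3.3, in a linear model of 4 group means over all 20 libraries, with moderated variances (trend, robust), two-sided, and Benjamini-Hochberg adjustment over all tested genes in each of 5 contrasts, threshold 0.05. Log2 differences are on this scale, which understates low genes; folds are ratios of group means. The procedure was tested on simulated data. Alternatives changed the pseudocount, filter, scaling, test, weights, samples in the fit and replicate block, and left out each library. On the whole reads, edgeR 4.0.16 called 6513 genes for the cold effect in DPP4+ cells, 615 in DPP4- cells, 4347 for their difference, 9819 between the populations at 22 °C and 9731 at 6 °C; DESeq2 1.42.0 called 6612, 888, 4531, 9812 and 9711. The limma fit called 6023, 681, 4329, 9782 and 9693.

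Replicates differed by more than sampling noise (chi-square per degree of freedom 3.13 to 46.6). Exon lengths came from GENCODE vM21, coordinates and promoters from RefSeq on GRCm38; all 10 genes matched by symbol. The members and gene lists were chosen with earlier results of these data known. All 10 members are named; of each list, up to 4 genes per contrast with the smallest p among those past the threshold are named. Pappa, Htra3 and Stat5b fall outside that rule and were named after their values were seen. Some genes that this rule would name are not reported here.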

Additional observations from a re-analysis of the deposited data

Results flagged for a closer look

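Among 40 groups of 5 libraries (10 genes in 4 groups), 5 held a library far from the rest of its group, measured as the gap to the nearest library over the whole range of the group; chance gives about 1 in 20. Igf1 stood at 7941 normalized reads in replicate 4 of DPP4- cells at 6 °C, where the others ranged from 5577 to 5978. Igf2r stood at 5751 in replicate 5 of the same group, against 4447 to 4800 in the others. Igf2 stood at 79.8 in replicate 4 of DPP4- cells at 22 °C, against 34.5 to 46.3 in the others. Igfbp2 stood at 7.68 in the same library, against 1.501 to 2.70 in the others, on 5 whole reads against 1 or 2. Igfbp7 stood at 4354 in replicate 3 of DPP4+ cells at 22 °C, against 4761 to 4867 in the others.

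The cold effect on Igfbp4 differed between the populations, by 0.64 on the log2 scale, DPP4+ minus DPP4- (adjusted p = 0.00202, limma). Igfbp4 was higher at 6 °C in DPP4+ cells (0.40) and had a value of -0.25 in DPP4- cells that did not pass.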

How the results depend on the processing

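None of the 10 IGF genes changed sign while past the threshold in any alternative. The IGF genes called for the cold effect in DPP4+ cells, 1 in the fit reported, numbered 2 with DESeq2 and without the libraries that stood apart (an alternative chosen after seeing the data), and 3 with only the groups compared, quantile normalization and sample weights; leaving out single libraries gave 1 to 2. In DPP4- cells the 2 called fell to 0 with only the groups compared and were 1 to 3 without single libraries, while all genes called there, 681, were 392 with only the groups compared, 434 with sample weights, 1142 with totals set equal (915 higher, 227 lower), 1089 without the libraries that stood apart and 480 to 814 without single libraries. The 1 gene called for the difference between populations in cold effect became 2 with quantile normalization, sample weights, totals set equal, without the libraries that stood apart, and with either replicate block, and 1 to 3 without single libraries; all genes split 1128 higher and 3060 lower with totals set equal (median -0.13), against 2192 and 2137. Between the populations, 6 called at 22 °C became 10 with totals set equal (7 higher, 3 lower), 9 with quantile normalization (6 higher, 3 lower) and 6 to 7 without single libraries, and 7 at 6 °C became 6 to 8. The cause of these changes was not tested.

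Single libraries moved some calls. Igf1r in DPP4+ cells passed without replicate 5 at 6 °C (adjusted p = 0.0292, limma). Igfbp2 in DPP4- cells passed without replicate 5 at 6 °C, which held no Igfbp2 read (1.03, adjusted p = 0.0287), as did its difference of cold effects (-1.14, adjusted p = 0.0217). Its DPP4- values rest on 0 to 7 whole reads per library. Igfbp2 also passed the filter only through DPP4+ cells, so neither call lends support. Without DPP4- replicate 5 at 6 °C the difference of cold effects passed for Igfbp3 too (-0.92, adjusted p = 0.0243). Igf2 at 6 °C passed without the same library (-0.68, adjusted p = 0.0309). Igfbp5 passed without DPP4+ replicate 5 at 6 °C for the difference of cold effects (-0.75, adjusted p = 0.0266) and between the populations at 6 °C (-0.51, adjusted p = 0.0172), and in the second case also without DPP4- replicate 2 (-0.45, adjusted p = 0.0452). At 22 °C Igfbp3 passed without DPP4+ replicate 2 (0.61, adjusted p = 0.0341) or DPP4- replicate 4 (0.63, adjusted p = 0.0256), and Igf1r without DPP4- replicate 5 (0.24, adjusted p = 0.0456).

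The sources used here do not say whether same-numbered libraries came from the same mice. Replicate numbers were not taken to pair the libraries, since not every same-numbered pair correlated above 0.1, but a pairing within temperature was not excluded. Deviations of same-numbered DPP4+ and DPP4- libraries correlated between 0.017 and 0.107 at 6 °C, where 4 of 5 correlated best with their own number, and between 0.029 and 0.156 at 22 °C, where 2 of 5 did; over all pairs of groups the range was -0.23 to 0.27. With the replicate block, Igfbp3 passed for the difference of cold effects (adjusted p = 0.0379, or 0.00371 with the block within temperature) and at 22 °C (0.0187 and 0.00124), and Igf1r at 6 °C did not (0.0594).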
